A study of Homo sapiens with 4 samples.

Results

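The genes described here were 10 core members of the BCL2 family, which were taken by symbol from a gene table of 41507 entries, together with the 70 transcripts listed under those symbols among 67765. They comprised the pro-survival genes BCL2, BCL2L1, MCL1 and BCL2A1, the BH3-only genes BCL2L11, BBC3, PMAIP1 and BID, and the effectors BAX and BAK1. RNA was sequenced from SU-DHL-5 and Toledo cells, established lines from human diffuse large B-cell lymphoma (DLBCL), each after 6 h in DMSO, the solvent control, or in 1 µM JQ1, an inhibitor of the BET bromodomain proteins that bind acetylated chromatin. The labels gave 6 h for all 4 conditions, whereas a legend of the study gave a longer time. There was 1 sample per condition with 2 libraries each, and nothing described the libraries as separate cultures, so no test between conditions was possible and no p-value is given. Each line is also a single model, and what differed between SU-DHL-5 and Toledo cannot be told apart from other differences between these cultures.

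The BCL2 family controls the permeability of the outer mitochondrial membrane. The effectors BAX and BAK1 open pores that release cytochrome c and start the caspase cascade, the pro-survival proteins hold them back, and the BH3-only proteins relieve that restraint or activate the effectors directly. In B-cell lymphomas the balance of pro-survival proteins is known to differ from tumor to tumor, and BCL2 and MCL1 are drug targets.

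The libraries held between 14617583 and 17679831 mapped reads, as recovered from the deposited values. All 6 B-cell markers examined, MS4A1 and CD79A among them, were above 1 RPKM (reads normalised to feature length and library depth) in every library, whereas the summed level of 3 T-cell markers stayed between 0 and 1.09 RPKM, that of 3 myeloid markers between 0.103 and 1.27 RPKM, and that of 3 epithelial or stromal markers between 0 and 2.72 RPKM. CD3E (1.09 and 0.934 RPKM in DMSO, 0.120 and 0.0452 RPKM in JQ1) and LYZ were lower with JQ1 in SU-DHL-5, and COL1A1 in Toledo, and their part in the results was not tested. Of the markers, CD2, EPCAM and KRT18 were listed at 0 throughout. HEXIM1, a gene known to rise under BET inhibition, was at 4.35 and 3.89 RPKM in DMSO and at 22.4 and 22.9 RPKM in JQ1 in SU-DHL-5 cells, and at 4.04 and 3.94 RPKM against 23.9 and 24.5 RPKM in Toledo cells. SERPINI1, another such gene, was at 0.366 and 0.254 RPKM against 1.627 and 1.246 RPKM in SU-DHL-5 cells. In Toledo cells it was lower, at 0.0271 and 0.0590 RPKM against 0.177 and 0.564 RPKM, with JQ1 libraries that lay far apart. MYC was at 44.1 and 40.9 RPKM in DMSO and 35.2 and 34.4 RPKM in JQ1 in SU-DHL-5 cells, and at 40.45 and 44.4 RPKM against 44.6 and 42.1 RPKM in Toledo cells. In bulk RNA, fewer cells carrying a transcript and less of it per cell cannot be told apart. RPKM is relative to the mapped reads of its library, so rises and falls are relative too, and total RNA per cell was not tested.

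Several members are spliced into forms with different activity, and the stretches that separate those forms are shown because the transcript values below turn on them. They were read from GENCODE v29 transcripts (GRCh38), 5′ to 3′, on the strand of the gene, and all of them are coding. The first is the 189-base stretch of BCL2L1 at chr20:31721655-31721843 (minus strand), present in the pro-survival long form (BCL-XL) and absent from the short form (BCL-XS), which promotes death. The second is the 248-base exon of MCL1 at chr1:150578244-150578491 (minus strand), without which the shorter protein acts like a BH3-only protein. The third and the fourth are adjacent parts of BCL2L11, of 180 bases at chr2:111123870-111124049 and of 90 bases at chr2:111124050-111124139 (plus strand): the longest form, BIM-EL, holds both, and BIM-L lacks the former.
BCL2L1, in the long form only: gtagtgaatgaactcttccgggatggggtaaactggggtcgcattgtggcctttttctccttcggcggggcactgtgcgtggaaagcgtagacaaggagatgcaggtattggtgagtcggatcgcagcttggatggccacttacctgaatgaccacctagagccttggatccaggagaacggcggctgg
MCL1, in the long form only: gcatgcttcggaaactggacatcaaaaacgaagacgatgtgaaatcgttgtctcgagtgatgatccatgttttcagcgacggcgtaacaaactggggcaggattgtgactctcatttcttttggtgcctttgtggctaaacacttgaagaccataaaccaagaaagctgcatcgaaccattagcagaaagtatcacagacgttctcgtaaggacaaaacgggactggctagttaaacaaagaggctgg
BCL2L11, in the EL form only: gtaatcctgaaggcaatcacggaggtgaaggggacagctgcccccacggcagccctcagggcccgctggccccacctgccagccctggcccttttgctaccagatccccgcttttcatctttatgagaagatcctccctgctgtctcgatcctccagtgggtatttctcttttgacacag
BCL2L11, in the EL and L forms: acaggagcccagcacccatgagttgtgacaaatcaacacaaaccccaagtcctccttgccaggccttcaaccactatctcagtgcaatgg

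In DMSO the lines held different pro-survival transcripts, as the plot of levels by library shows. SU-DHL-5 cells held almost only MCL1, whereas Toledo cells held BCL2 and BCL2L1 beside it. Of the 10 members, all of which reached a mean of 1 RPKM over the libraries compared, 4 were called higher in Toledo and 4 lower. A call needed a change of at least 1.5-fold between sample means with 0.1 RPKM added, and libraries of one condition all above or all below those of the other. Over all 9630 genes tested, 25.5% were called higher in Toledo and 23.7% lower, and 4 of 10 members in each direction are to be read against these shares.

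**Figure D1:**
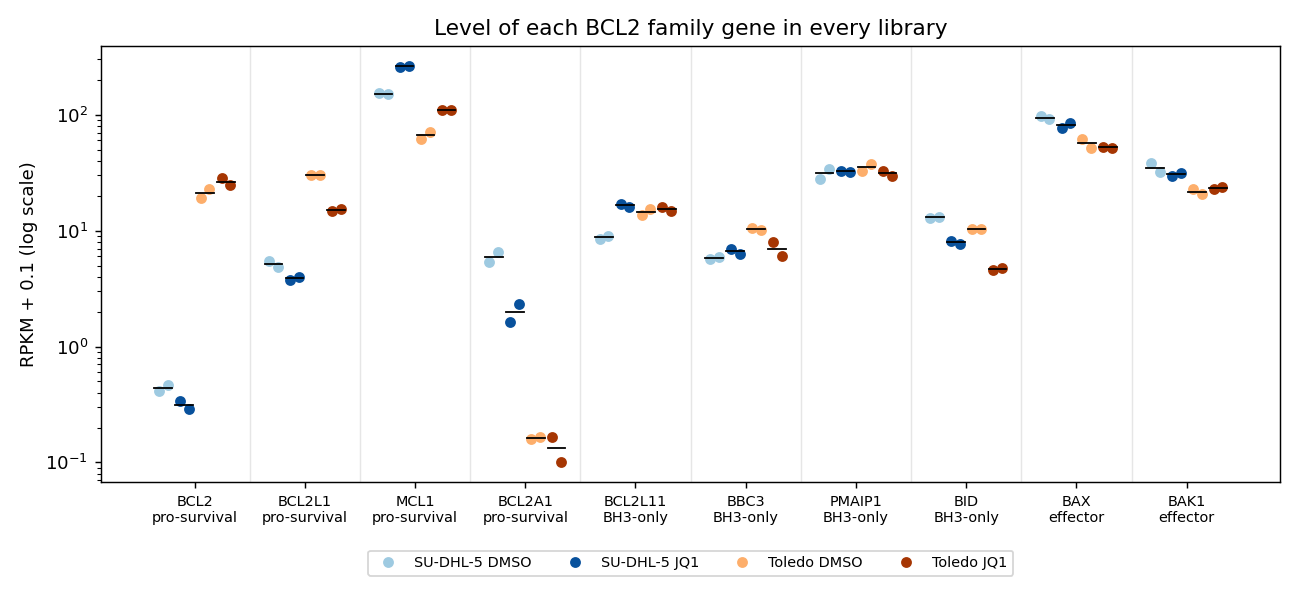
RPKM + 0.1 (log scale) of each member in each of the 8 libraries (points) with the mean of the 2 libraries of a condition (lines). BCL2 lies below 1 RPKM in SU-DHL-5 and above 19.0 RPKM in Toledo, BCL2A1 shows the opposite order, and MCL1 is the highest member in all 4 conditions.

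BCL2 (chr18:63123346-63319778), the founding member of the family, was at 0.311 and 0.366 RPKM in SU-DHL-5 and at 19.0 and 22.9 RPKM in Toledo. These values stood on 84 and 5355 reads, and the rate of reads was 61.4 times higher in Toledo (95% counting interval 49.5 to 77.1). BCL2L1 (chr20:31664452-31723955) was at 5.37 and 4.79 RPKM in SU-DHL-5 and at 30.08 and 29.98 RPKM in Toledo, a log2 difference of 2.54 (interval 2.44 to 2.69). The intervals here and below come from the exact binomial share of reads and cover counting error only, not the spread between cultures.

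BCL2A1 (chr15:79960890-79971301), an NF-kB target in B cells, had the reverse order. It was at 5.27 and 6.43 RPKM in SU-DHL-5, whereas Toledo had 1 read in each DMSO library. The read rate was 93.9 times lower in Toledo, with a counting interval from 25.6 to 781 that the 2 reads leave wide. MCL1 (chr1:150574551-150579738), which encodes a short-lived pro-survival protein, was at 154.5 and 150.0 RPKM in SU-DHL-5 and at 62.2 and 71.4 RPKM in Toledo, a log2 difference of -1.19 (interval -1.23 to -1.16).

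Summed over the 4 pro-survival genes, MCL1 supplied 93.1% of the RPKM in SU-DHL-5 DMSO and 56.7% in Toledo DMSO. In Toledo, BCL2L1 supplied 25.5% and BCL2 17.8%, whereas in SU-DHL-5 they supplied 3.105% and 0.207%. The libraries of a condition lay close together in this share, at 93.4% and 92.8% for MCL1 in SU-DHL-5 and at 55.9% and 57.4% in Toledo. A share of RNA says nothing of the amounts of protein.

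Among the effectors, BAX (chr19:48954860-48961798) was at 97.8 and 90.9 RPKM in SU-DHL-5 and at 61.5 and 51.7 RPKM in Toledo, a log2 difference of -0.74 (interval -0.80 to -0.65). BAK1 (chr6:33572546-33580296) was at 38.0 and 31.7 RPKM against 22.6 and 20.5 RPKM, a log2 difference of -0.69 (interval -0.78 to -0.59). Both effectors were thus lower in Toledo by over 1.5-fold, with no overlap of libraries.

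The BH3-only genes BCL2L11 and BBC3 differed in the other direction. BCL2L11 (chr2:111120914-111168445), which encodes BIM and binds every pro-survival member, was at 8.40 and 8.85 RPKM in SU-DHL-5 and 13.5 and 15.3 RPKM in Toledo, a log2 difference of 0.73 (interval 0.65 to 0.81). BBC3 (chr19:47220822-47232853), which encodes PUMA, was at 5.56 and 5.82 RPKM against 10.4 and 10.1 RPKM, a log2 difference of 0.84 (interval 0.67 to 1.02). PMAIP1 (chr18:59899960-59904306), which encodes NOXA, the partner of MCL1, was at 28.0 and 34.3 RPKM in SU-DHL-5 and 32.8 and 37.8 RPKM in Toledo, and these libraries overlapped. BID (chr22:17734140-17774665), the link from death receptors to mitochondria, was at 12.8 and 13.1 RPKM in SU-DHL-5 and 10.3 RPKM in both libraries of Toledo, a log2 difference of -0.33 that was under 1.5-fold.

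Within each condition MCL1 was the highest member and BAX the next, with no overlap of libraries between them. In SU-DHL-5 DMSO the order continued with BAK1, PMAIP1, BID, BCL2L11, BCL2A1, BBC3, BCL2L1 and BCL2, where BAK1 and PMAIP1 overlapped, and BCL2A1 overlapped both BBC3 and BCL2L1. In Toledo DMSO it continued with PMAIP1, BCL2L1, BAK1, BCL2, BCL2L11, BID, BBC3 and BCL2A1, where BAK1 and BCL2 overlapped, as did BID and BBC3.

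MCL1 rose and BID fell in JQ1 in both lines, as the plot of JQ1 ratios shows. Of 9 members tested in each line, 2 were called higher and 2 lower in SU-DHL-5, and 1 was called higher and 2 lower in Toledo. BCL2 in SU-DHL-5 and BCL2A1 in Toledo lay under the minimum of 1 RPKM and were not tested. Over all 9094 genes tested in SU-DHL-5, 8.72% were called higher and 12.1% lower, and over 9380 in Toledo, 6.68% were called higher and 15.8% lower. The median log2 ratio of the tested members was -0.19 in SU-DHL-5, against 0.02 for all genes tested, and -0.11 in Toledo, against -0.06.

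**Figure D2:**
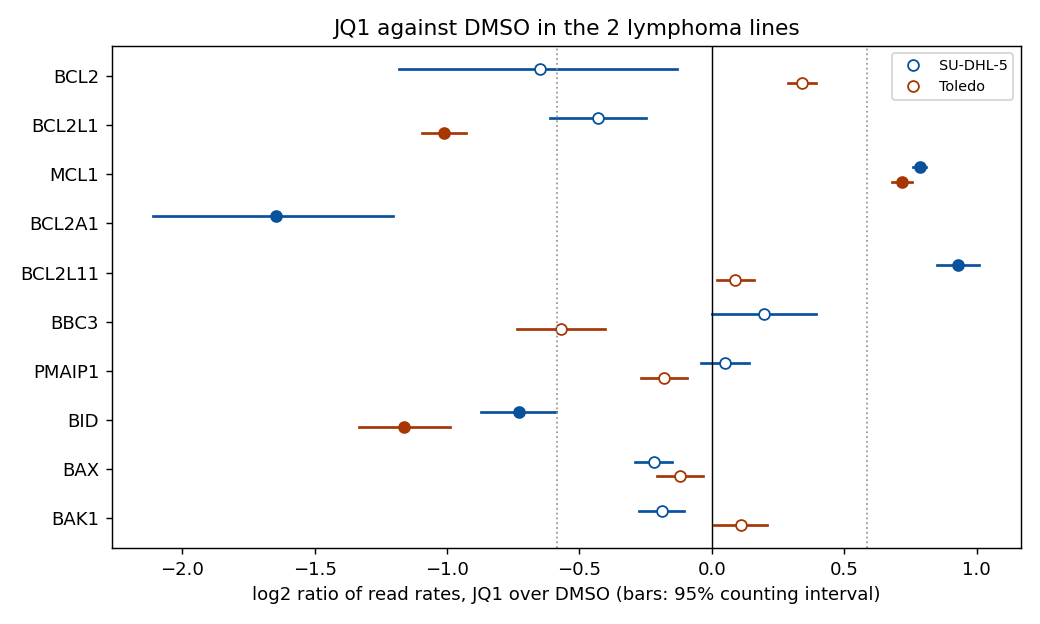
Log2 ratio of read rates, JQ1 over DMSO, for each member in SU-DHL-5 (blue) and Toledo (brown), with 95% counting intervals as bars. Filled points were called at 1.5-fold (dotted lines), and BCL2A1 in Toledo, with 3 reads in all, is not drawn. MCL1 and BID are called on the same side in both lines, whereas BCL2L11 and BCL2A1 are called only in SU-DHL-5 and BCL2L1 only in Toledo.

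MCL1 was at 154.5 and 150.0 RPKM in DMSO and at 259.9 and 264.5 RPKM in JQ1 in SU-DHL-5 cells. In Toledo cells it was at 62.2 and 71.4 RPKM in DMSO and at 109.3 and 109.8 RPKM in JQ1. All JQ1 libraries were above the DMSO libraries of their line, and the log2 ratios were 0.78 (interval 0.76 to 0.81) and 0.71 (interval 0.68 to 0.75). Over 8495 genes tested in both lines, 3.65% were called higher in both, and MCL1 was the 1 such member. In JQ1, MCL1 supplied 97.8% of the pro-survival sum in SU-DHL-5 and 72.6% in Toledo, as the stacked plot shows.

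**Figure D3:**
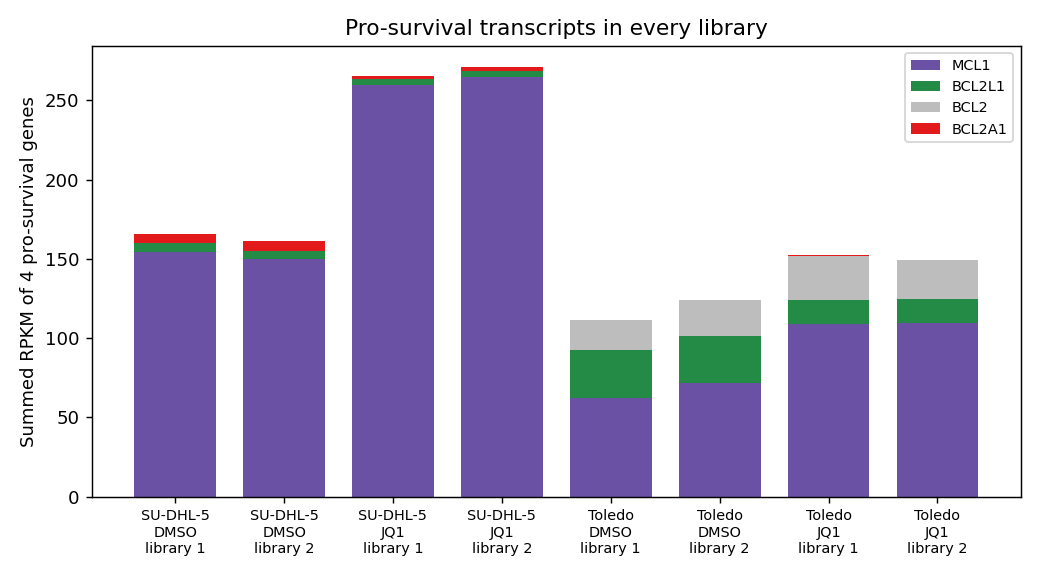
Summed RPKM of MCL1, BCL2L1, BCL2 and BCL2A1 in each of the 8 libraries (stacked bars). The sum was 165.5 and 161.6 RPKM in SU-DHL-5 DMSO and 265.4 and 270.8 RPKM in JQ1, and 111.4 and 124.4 RPKM against 152.2 and 149.6 RPKM in Toledo.

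BID was at 12.8 and 13.1 RPKM in DMSO and 8.11 and 7.51 RPKM in JQ1 in SU-DHL-5 cells, and at 10.3 RPKM in both DMSO libraries and 4.48 and 4.71 RPKM in JQ1 in Toledo cells. The log2 ratios were -0.73 (interval -0.87 to -0.59) and -1.14 (interval -1.33 to -0.99). Over the genes tested in both lines, 7.39% were called lower in both, and BID was the 1 such member. Its listed transcript BID_5 matched the reference transcript BID-215, of 195 codons, in exon length once the reference ends were moved to the listed ones. It carried most of the signal, from 74.0% to 93.6% of the summed transcript RPKM in a library.

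BCL2L1 fell in Toledo, from 30.08 and 29.98 RPKM to 14.6 and 15.2 RPKM, or 2.01-fold lower (interval 1.90 to 2.13). In SU-DHL-5 it went from 5.37 and 4.79 RPKM to 3.67 and 3.87 RPKM, without overlap, but its log2 ratio of -0.42 was under 1.5-fold. BCL2 in Toledo was at 19.0 and 22.9 RPKM in DMSO and 28.3 and 24.5 RPKM in JQ1, a log2 ratio of 0.33 (interval 0.29 to 0.39) that was also under 1.5-fold. This ratio was 0.571 with library 1 alone and 0.0996 with library 2 alone, a spread wider than the counting interval. Hence BCL2, at 26.4 RPKM, stood above BCL2L1, at 14.9 RPKM, in Toledo JQ1, whereas BCL2L1 had been the higher one in DMSO, with no overlap of libraries in either condition. In SU-DHL-5, BCL2 stood on 84 reads in DMSO and 51 in JQ1, a ratio of read rates of 0.638 (interval 0.441 to 0.914).

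BCL2A1 fell in SU-DHL-5 by the largest step among the members tested there, from 5.27 and 6.43 RPKM to 1.54 and 2.25 RPKM. The log2 ratio was -1.58, and the read rate was 0.319 of that in DMSO (interval 0.232 to 0.434), from 181 and 55 reads. Toledo gave 2 reads with DMSO and 1 with JQ1, too few for a ratio.

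BCL2L11 rose in SU-DHL-5, from 8.40 and 8.85 RPKM to 16.8 and 16.0 RPKM, a log2 ratio of 0.92 (interval 0.85 to 1.01). In Toledo it was at 13.5 and 15.3 RPKM in DMSO and 15.8 and 14.7 RPKM in JQ1, where the libraries overlapped and the log2 ratio was 0.08. The difference of the log2 ratios, -0.84 for Toledo minus SU-DHL-5, has no test with 1 sample per condition.

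The libraries of BBC3 and BAK1 separated in opposite directions in the lines, without a call and partly by small steps. BBC3 was at 5.56 and 5.82 RPKM in DMSO and 6.79 and 6.23 RPKM in JQ1 in SU-DHL-5, and at 10.4 and 10.1 RPKM against 7.85 and 5.95 RPKM in Toledo. The log2 ratios were 0.19 (interval -0.0009 to 0.39, which includes 0) and -0.56 (interval -0.74 to -0.40). BAK1 was at 38.0 and 31.7 RPKM against 29.7 and 31.3 RPKM in SU-DHL-5, and 22.6 and 20.5 RPKM against 23.0 and 23.6 RPKM in Toledo. The log2 ratios were -0.19 (interval -0.27 to -0.11) and 0.11 (interval 0.0086 to 0.21), and the former was -0.02 with library 2 alone. Such opposite separation of libraries was found for 6.92% of the genes tested in both lines.

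BAX and PMAIP1 stayed within 1.5-fold in both lines. BAX was at 97.8 and 90.9 RPKM in DMSO and 76.8 and 85.5 RPKM in JQ1 in SU-DHL-5, and 61.5 and 51.7 RPKM against 52.6 and 52.0 RPKM in Toledo. PMAIP1 was at 28.0 and 34.3 RPKM against 32.7 and 31.9 RPKM in SU-DHL-5, and at 32.8 and 37.8 RPKM against 32.6 and 29.6 RPKM in Toledo. Their log2 ratios were -0.22 and -0.11 for BAX and 0.05 and -0.18 for PMAIP1.

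The transcript table divides the reads of a gene among its listed forms, so its values are estimates that can shift between similar forms. Of the 70 transcripts, 59 had a value above 0 in some library and 23 in every library. A GENCODE transcript matched 21 of them in length, once its ends were moved to the listed ones by at most 3000 bases each. Nearly all MCL1 was the long form, MCL1_3 (MCL1-202, 350 codons), from 94.0% to 99.25% of the gene's transcript RPKM in a library. The form MCL1_2 (MCL1-201), which lacks the 248-base exon shown above, was between 0.86 and 3.60 RPKM in every library. In SU-DHL-5 it was at 1.21 and 0.860 RPKM in DMSO and 1.96 and 3.60 RPKM in JQ1, a log2 ratio of 1.34 (interval 1.11 to 1.71). In Toledo it was at 2.21 and 1.96 RPKM against 1.86 and 1.18 RPKM, a log2 ratio of -0.43 (interval -0.73 to -0.19). The other minor form, MCL1_1 (MCL1-204, 197 codons), went from 1.18 and 2.99 RPKM to 0 RPKM in both JQ1 libraries of SU-DHL-5. In Toledo it was at 1.53 and 0 RPKM against 0 and 0.786 RPKM. The intervals do not cover reads that shift between these minor forms, so the rise of MCL1_2 in SU-DHL-5 is not settled.

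For BCL2L1, the long form BCL2L1_4 (BCL2L1-201) was at 23.1 and 20.9 RPKM in Toledo DMSO and at 7.42 and 11.9 RPKM in JQ1, a log2 ratio of -1.18 (interval -1.32 to -1.08). The short form BCL2L1_3, which lacks the 189-base stretch, was at 3.58 and 1.77 RPKM in Toledo DMSO and at 0.285 and 1.93 RPKM in JQ1, where the libraries overlapped. In SU-DHL-5, BCL2L1_4 was listed at 0 in 3 of 4 libraries and at 2.22 RPKM in the other. BCL2L1_2, of the same length of 2559 bases and nearly the same ends, was unmatched in structure. In SU-DHL-5 it was at 1.77 and 1.15 RPKM in DMSO and 1.07 and 0 RPKM in JQ1. In Toledo it was at 12.3 RPKM in both DMSO libraries and 9.49 and 4.72 RPKM in JQ1. There, the JQ1 library with less BCL2L1_4 held more BCL2L1_2, and both forms lay below DMSO. The level of the long form in SU-DHL-5 and the size of its fall in Toledo are thus not settled by BCL2L1_4 alone. BCL2L1_1, also of unmatched structure, was at 5.02 and 5.23 RPKM in DMSO and 3.97 and 2.85 RPKM in JQ1 in SU-DHL-5.

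For BCL2L11, the EL form BCL2L11_4 was at 4.796 and 4.10 RPKM in SU-DHL-5 DMSO and 5.76 and 8.45 RPKM in JQ1, a log2 ratio of 0.66 (interval 0.53 to 0.80). BCL2L11_8, shorter by 180 bases, the length of the EL stretch, was at 2.28 and 1.94 RPKM against 6.79 and 2.38 RPKM. BCL2L11_15, shorter by 270 bases, the length of both stretches together, was at 0 and 0.293 RPKM against 2.32 and 2.25 RPKM. These 3 forms thus lay higher in JQ1 without overlap of libraries in SU-DHL-5, and the libraries of JQ1 differed among themselves in how they split the first 2. Other listed forms varied: BCL2L11_2 (BCL2L11-221) was at 0.268 and 0.225 RPKM against 3.50 and 1.48 RPKM, and BCL2L11_20 (BCL2L11-202) at 2.03 and 3.02 RPKM against 2.01 and 1.90 RPKM. In Toledo, forms went both ways. BCL2L11_15 was at 2.94 and 3.23 RPKM against 2.50 and 2.91 RPKM, and BCL2L11_2 at 1.45 and 0.259 RPKM against 0 and 0.0474 RPKM. The EL form BCL2L11_4 overlapped there, at 6.48 and 8.34 RPKM against 8.36 and 7.19 RPKM. BCL2L11_8 lay higher in JQ1, at 5.21 and 5.68 RPKM against 6.69 and 6.03 RPKM. BCL2L11_7 (BCL2L11-220) did too, at 0.202 and 1.23 RPKM against 1.72 and 2.33 RPKM.

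BAX showed a difference between forms that its gene value did not. BAX_1 (BAX-202, the 192-codon alpha form) was at 93.5 and 82.4 RPKM in DMSO and 77.4 and 85.8 RPKM in JQ1 in SU-DHL-5, and at 50.4 and 38.5 RPKM against 54.8 and 52.9 RPKM in Toledo. BAX_4 (BAX-201, 218 codons, with a different end) was at 25.9 and 23.8 RPKM against 15.7 and 17.2 RPKM in SU-DHL-5, and 25.2 and 21.9 RPKM against 11.7 and 12.0 RPKM in Toledo. The log2 ratios of BAX_4 were -0.59 (interval -0.77 to -0.42) and -0.99 (interval -1.19 to -0.81). The fall was not particular to BAX_4: BAX_3 (BAX-203, 143 codons), at a lower level, had log2 ratios of -0.59 and -1.17, without overlap. In SU-DHL-5, BAX_6 fell (log2 ratio -0.97) and BAX_5 rose (0.81), and both overlapped in Toledo, whereas BAX_2 overlapped in both lines.

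**Figure D4:**
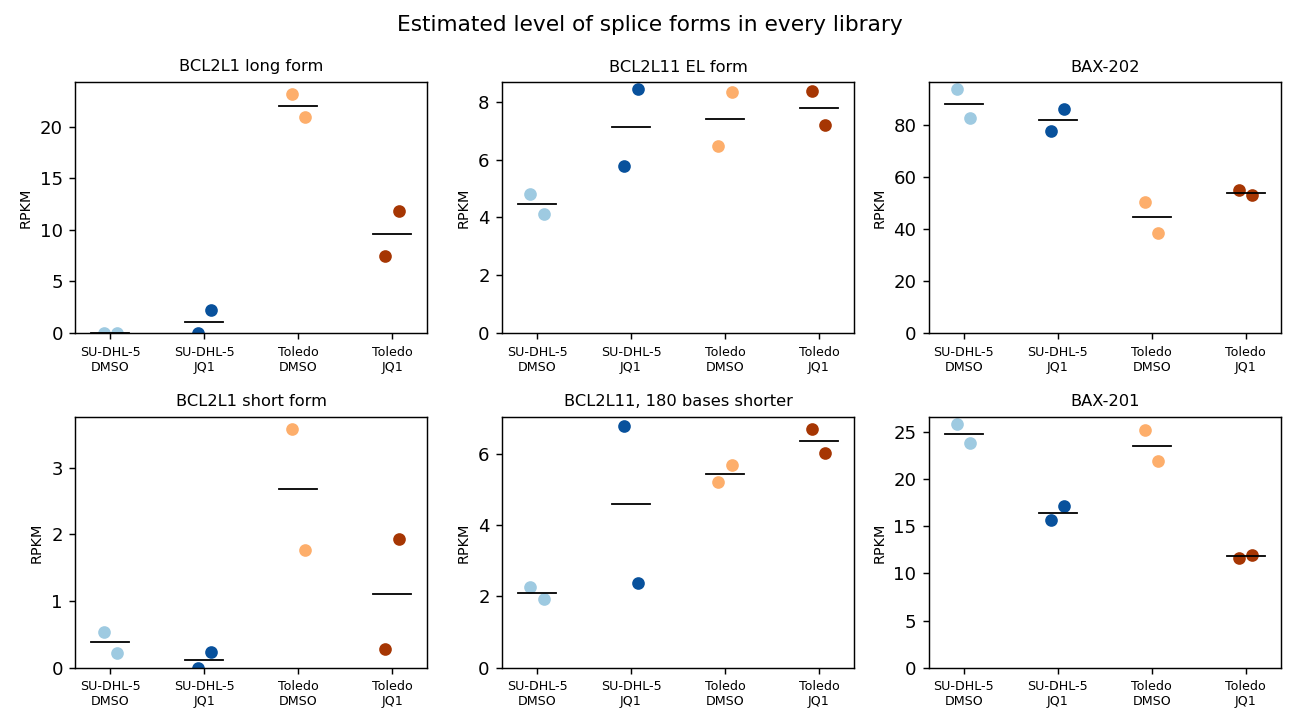
Estimated RPKM of 6 splice forms in each library (points) with the mean of the 2 libraries of a condition (lines), on axes that start at 0 and differ between panels. The BCL2L1 long form and BAX-201 are lower in Toledo JQ1 than in Toledo DMSO, and the BCL2L11 forms drawn are higher in SU-DHL-5 JQ1 than in SU-DHL-5 DMSO.

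Of 13 other genes of the BCL2 family, 7 were tested in each line: 3 were called higher and 1 lower in SU-DHL-5, and none was called in Toledo. Over all genes, SU-DHL-5 had 8.72% called higher and 12.1% lower, Toledo had 6.68% and 15.8%, and the counts of this list and of the lists that follow, which are small, stand beside them. BIK, a BH3-only gene, was at 145 and 126 RPKM in SU-DHL-5 DMSO and 260.5 and 260.6 RPKM in JQ1, a log2 ratio of 0.94, whereas Toledo held 5.04 and 3.49 RPKM in DMSO and 3.74 and 4.62 RPKM in JQ1. BNIP3L, a receptor for mitophagy, was at 41.4 and 56.0 RPKM against 96.0 and 92.9 RPKM in SU-DHL-5. BMF, a BH3-only gene whose protein is held at the cytoskeleton, was at 0.760 and 0.766 RPKM against 1.85 and 1.73 RPKM in SU-DHL-5 and at 0.658 and 0.584 RPKM against 1.26 and 1.29 RPKM in Toledo, where its mean was under the minimum. BAD, a BH3-only gene controlled by survival kinases, fell in SU-DHL-5 from 33.8 and 30.99 RPKM to 19.8 and 20.6 RPKM, and in Toledo was at 55.6 and 47.9 RPKM against 33.9 and 36.8 RPKM, under 1.5-fold.

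The pro-survival gene BCL2L2 was low in both lines, at 1.15 and 1.48 RPKM against 0.530 and 0.505 RPKM in SU-DHL-5 and at 0.866 and 0.741 RPKM against 0.269 and 0.186 RPKM in Toledo, where its mean, as in SU-DHL-5, was under the minimum. HRK, a BH3-only gene, was at 0.297 and 0.157 RPKM in SU-DHL-5 DMSO and 5.74 and 5.75 RPKM in Toledo DMSO. BCL2L12 was at 51.8 and 48.3 RPKM in SU-DHL-5 DMSO and 20.3 and 16.8 RPKM in Toledo DMSO, BCL2L13 at 6.995 and 7.05 RPKM against 6.02 and 6.945 RPKM, and BNIP3 at 44.3 and 70.03 RPKM against 12.98 and 12.4 RPKM, and none of them was called under JQ1. BCL2L14 and BCL2L15 stayed under 1 RPKM, and BCL2L10 and BOK were listed at 0 in every library.

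Of 13 genes of the apoptosome, caspases and their inhibitors, 2 were called higher in SU-DHL-5 and 1 in Toledo, with none lower. APAF1, the scaffold on which cytochrome c activates caspase-9, was the gene called in both, with 3.002 and 3.25 RPKM in DMSO and 7.02 and 6.96 RPKM in JQ1 for SU-DHL-5, and a step from 0.9045 and 1.05 RPKM to 1.616 and 1.655 RPKM in Toledo. Of 9 death receptor genes, 6 were tested in SU-DHL-5, where FAS and CFLAR were called lower, and 4 in Toledo, where none was called. In SU-DHL-5, FAS was at 2.47 and 2.29 RPKM against 1.45 and 1.66 RPKM, a log2 ratio of -0.587 that was only just past 1.5-fold. CFLAR was at 2.995 and 2.75 RPKM against 1.10 and 1.17 RPKM there, a log2 ratio of -1.27. FAS and CFLAR were under the minimum in Toledo, but their JQ1 libraries lay below DMSO there too, with 290 and 99 reads for FAS and 297 and 75 reads for CFLAR in DMSO and JQ1. Of 14 regulators of the members, 13 were tested in SU-DHL-5, with 1 called higher and 1 lower, and 12 in Toledo, with 2 higher and none lower. These counts too are to be read against the shares over all genes given above.

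By the pattern over the 4 sample means, on a log2 scale centred per gene, the genes nearest to MCL1 among 9521 were LOC102723410, TMEM251 and RRAS, at distances of 0.107, 0.107 and 0.120. Those nearest to BID were MRPL3, AEN and SCMH1, at 0.0835, 0.121 and 0.123. Each distance rests on 4 points.

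Promoter windows in RefSeq (GRCh38.p14) were found for 9 of the 10 members, and MCL1 was not among them. The 250 bases before the start used by BID_5 are shown at chr22:17774496-17774745 (minus strand), 5′ to 3′, because BID fell in both lines, with matches to the GC box GGGCGG on either strand in capitals.
BID: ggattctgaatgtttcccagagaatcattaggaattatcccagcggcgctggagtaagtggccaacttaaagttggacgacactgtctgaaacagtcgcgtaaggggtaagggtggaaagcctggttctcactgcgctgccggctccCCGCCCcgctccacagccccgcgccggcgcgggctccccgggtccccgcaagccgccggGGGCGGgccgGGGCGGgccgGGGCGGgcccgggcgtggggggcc
This window held 4 matches to GGGCGG, which occurs on either strand in 42.6% of 35116 windows of the same length, and none to the E-box CACGTG (6.34% of windows), to the forkhead motif TGTTTAC (2.98%) or to TATAAA (10.7%). BID has other windows for other starts, and the overlapping ones at chr22:17773984-17774233 and chr22:17774043-17774292 each held 1 match to CACGTG. A match describes letters only and is not a site of binding.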

How the data were processed

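RNA of 4 conditions (SU-DHL-5 and Toledo cells, each in DMSO or JQ1) was sequenced by the authors from stranded mRNA libraries, 2 per condition. The deposited tables hold RPKM for genes and for transcripts, which the authors made from trimmed paired reads. The submitters' processing notes name GRCh38 (hg38) and CASAVA 2.0, and the aligner and counter are not given in the sources used here. Starts in the files count from 0 and are printed here from 1. The members and gene lists were chosen with earlier results of these data known.

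The libraries of a condition were averaged. Log2 ratios used RPKM + 0.1. Genes with a mean of at least 1 RPKM over the libraries compared were tested, and a call needed 1.5-fold and libraries without overlap. With 1 sample per condition no p-value exists. Mapped reads were recovered from single-exon genes, and feature lengths as the smallest number of bases from 100 to 40000 that gave whole reads (within 0.02 of a read). Between 94.7% and 95.3% of mapped reads were on genes. Intervals are exact binomial (Clopper-Pearson, 95%) and cover counting error only. Listed transcripts were matched to GENCODE v29 by length, after each reference end was moved to the listed one by at most 3000 bases. The rule was tried on simulated reads that varied by counting error only, which says nothing of the spread between cultures. Named genes were all members, the other family genes, genes called in both lines among the lists, and the 3 nearest patterns. FAS and CFLAR were named after their values were seen. A listed regulator and a listed marker are not reported here. Alternatives covered the pseudocount, the filter, scaling, each library alone, transcript sums, length and the fold. Every deposited RPKM column was used.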

Additional observations from a re-analysis of the deposited data

Results flagged for a closer look

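For 3 members, the JQ1 libraries lay wholly on one side of the DMSO libraries in SU-DHL-5 and wholly on the other side in Toledo. The log2 ratio in Toledo minus that in SU-DHL-5 was 0.81 for BCL2, -0.75 for BBC3 and 0.30 for BAK1. These differences were not tested, since each condition had 1 sample. Among genes tested in both lines, 6.92% showed such a split, as did 2 of 8 members, BBC3 and BAK1. BCL2 was under the minimum in SU-DHL-5, where it stood on 84 reads in DMSO and 51 in JQ1.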

How the results depend on the processing

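No paired analysis was possible because a single sample stood for each condition. The counts of members called were within 1.5 times of the reported ones in 65 of 72 recomputed values. At 2-fold in place of 1.5-fold, 0 members were higher and 1 lower in SU-DHL-5, 0 were higher in Toledo under JQ1, and 2 were higher and 2 lower in Toledo against SU-DHL-5. With a mean of at least 5 RPKM, 1 member was lower in SU-DHL-5, and 3 in Toledo against SU-DHL-5, since BCL2A1 was then not tested. At the smaller fold among the alternatives, 2 members were higher in Toledo under JQ1, BCL2 being added to MCL1. BCL2L1 was then called lower under JQ1 in SU-DHL-5 too, as it was in Toledo. With transcript values summed per gene, BCL2L11 was no longer called between the lines, at a log2 difference of 0.54, and with library 2 alone BBC3 was called lower in Toledo under JQ1. No called member changed sign in any alternative. Among ratios of members not called, 5 of 105 changed sign, and BAX in Toledo went to 0.09 when ratios were centred on feature length. The ratios of MCL1 lay between 0.74 and 0.82 for SU-DHL-5 and between 0.62 and 0.81 for Toledo, and those of BID from -0.80 to -0.66 and from -1.18 to -1.01. Depth limited BCL2A1 in Toledo and BCL2 in SU-DHL-5, and a single sample per condition limited every comparison.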
